A study of Caenorhabditis elegans with 2 samples.

Results

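Dosage compensation complex genes encode the machinery that Caenorhabditis elegans hermaphrodites load onto both of their X chromosomes. The 10 genes described here, dpy-21, dpy-26, dpy-27, dpy-28, dpy-30, sdc-1, sdc-2, sdc-3, mix-1 and capg-1, were taken by name out of 19973 nuclear protein-coding genes. For each gene, every peak summit in the annotated body or up to 500 bp upstream was collected from 4 deposited peak lists. Summits were ranked within a list by the deposited signal value, with rank 1 the highest among nuclear peaks. The genes were selected on summit positions and signal ranks already known from these same lists, so their summits are given as a description, without a test.

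The peaks came from chromatin immunoprecipitation with sequencing of whole young adult hermaphrodites of strain RW10325, collected 63 h after starved L1 larvae were released. The animals carried a stable transgene for MES-4 fused at its C terminus to GFP and FLAG, and chromatin was precipitated with an antibody to GFP. MES-4 methylates a lysine of histone H3, is required by the germline and is best known from autosomal genes that germ cells express. The labels give MES-4 as the antibody target and GFP as what the antibody bound. There was 1 group with 2 biological replicates and no second condition, so members were set beside all protein-coding genes and replicate 1 beside replicate 2. Whole animals mix germline and somatic nuclei, the regulatory sequence of the transgene is not given in the sources used here, and an immunoprecipitation from untagged animals was not analysed here.

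As background, the complex contains a condensin, a ring of paired SMC ATPases with a kleisin and HEAT-repeat subunits, which constrains chromosome loops. SDC proteins and DPY-30 bring that ring to recruitment sites on the X, and transcription from both hermaphrodite X chromosomes is lowered to match the single X of males. Apart from DPY-27, the condensin subunits of the complex also serve in the mitotic and meiotic condensins that dividing cells use on all chromosomes.

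The reproducible list held 440 nuclear peaks, and the relaxed lists, which also include background, held 12008 nuclear peaks for the pooled replicates, 15372 for replicate 1 and 14947 for replicate 2. Signal scales differed between lists, from 28.3 to 378 in the pooled list, from 15.6 to 226 in replicate 1 and from 14.7 to 151 in replicate 2. Values were therefore compared as ranks within a list. Read depth is unknown from these lists, so a gene without a summit may fall below what the depth allowed. Both replicates are called biological in the labels, and their values are given side by side throughout.

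In the reproducible list 1 of the 10 genes, mix-1, had a summit, where 1.45% of all protein-coding genes did (289 of 19973). In the pooled relaxed list 8 of 10 had one, against 34.3% of all genes. In replicate 1 it was 8 of 10 against 40.6%, and in replicate 2 again 8 of 10 against 39.5%. The members are long genes, with a median of 7916 bp against 2027 bp for all protein-coding genes, and 9 of 10 span at least 5 kb. Among all 3233 protein-coding genes of at least 5 kb, 61.1% had a summit in the pooled list, 71.1% in replicate 1 and 68.6% in replicate 2. For the 9 long members the counts were 7 of 9 in each of these lists.

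In the relaxed lists a summit was thus common both at the members and at long genes in general. Counted per 10 kb of gene and upstream sequence, members had 2.02 summits in the pooled list, against 1.40 for all protein-coding genes and 1.19 for those of at least 5 kb. The same density was 2.66 in replicate 1, against 1.77 for all genes and 1.54 for those of at least 5 kb. In replicate 2 it was 2.02, against 1.71 and 1.47. The best-ranked summits of the 8 members had a median rank of 2101 in the pooled list. It was 4780 for all genes with a summit and 4437 for those of at least 5 kb. The dpy-30 summit counted here, at rank 890, also lay in the gene rnp-1. The deposited −log10 q value is higher for peaks less likely to be background. At the best member summits the values were 2.18 at mix-1, 1.44 at dpy-21 and 1.29 at dpy-30. In the other members with a pooled summit they ran from 0.488 at dpy-28 down to 0.0301 at capg-1. These values came from the same lists that were used to choose the genes and carry no test.

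**Figure D1:**
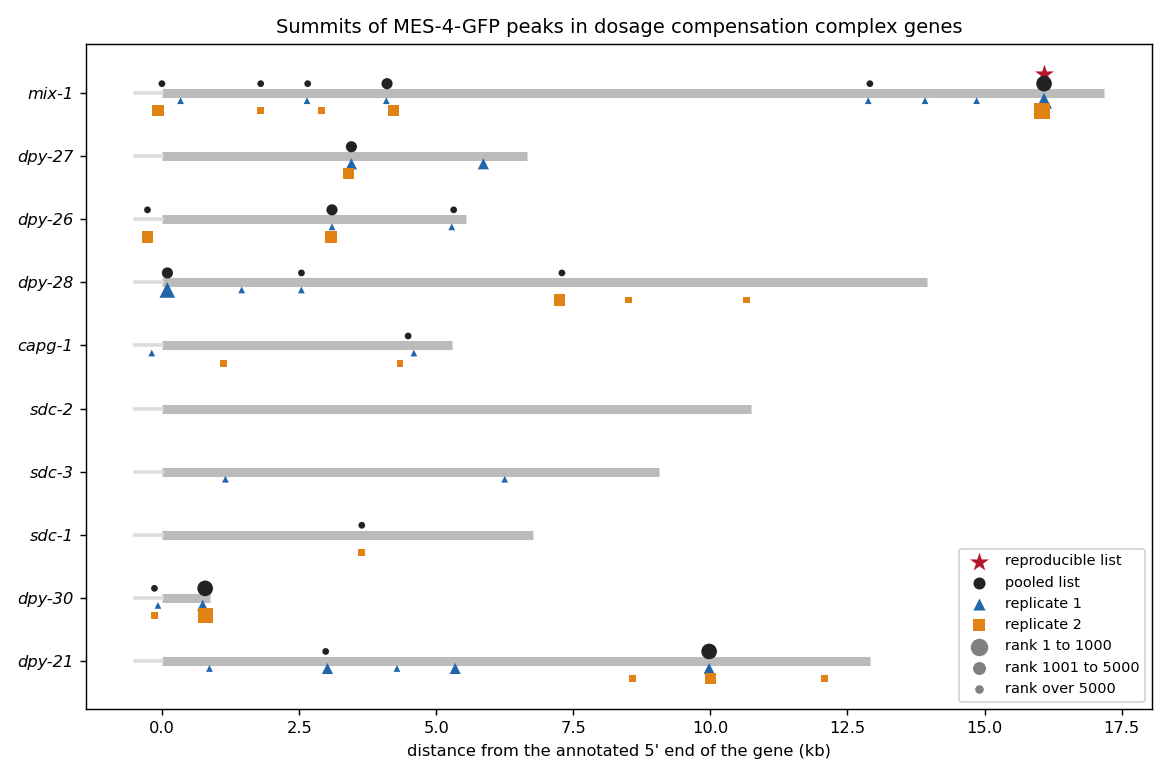
Summits of MES-4-GFP peaks along the 10 genes, plotted as distance from the annotated 5' end in kb, with grey bars for gene bodies and thin bars for the 500 bp upstream. Symbols give the list and their size the rank class. The only star, for the reproducible list, lies near the 3' end of mix-1, and sdc-2 has no symbol.

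Among the genes of condensin subunits, mix-1 (II, 10824246 to 10841424, plus strand, 17179 bp) had the highest-ranked summit, and it encodes the SMC subunit shared by all worm condensins. Its reproducible peak (II, 10840112 to 10840551) had signal 142 and ranked 64 in both the reproducible and the pooled list. The peak over the same site ranked 215 in replicate 1, with signal 53.8, and 23 in replicate 2, with signal 89.0. Both replicates therefore placed this site above every other summit in the 10 genes, and replicate 2 ranked it higher.

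That summit lay in intron 13 of mix-1, 16086 bp from the 5' end, inside the snoRNA gene M106.6 (II, 10840317 to 10840391, plus strand, 75 bp). Small nucleolar RNAs guide chemical modification of other RNAs in the nucleolus. The summit was 15 bp downstream of the 5' end of M106.6 in the reproducible and pooled lists and in replicate 1. In replicate 2 it was 27 bp upstream of that end. Of 346 annotated snoRNA genes, 118 were the small RNA gene nearest to a pooled summit within 220 bp, and M106.6 stood at place 31 of these, where the median best rank was 264. No other member summit lay within 220 bp of a tRNA, snRNA or snoRNA gene, in any of the 4 lists. For comparison, 65.9% of all nuclear summits of the reproducible list and 6.09% of the pooled list did. With peaks at such genes left out, mix-1 had no reproducible summit.

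**Figure D2:**
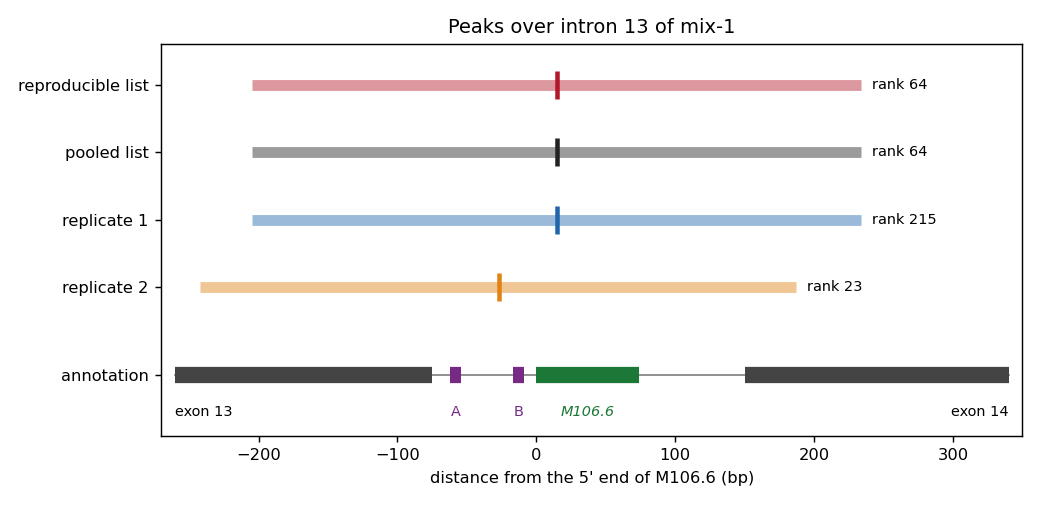
Peaks over intron 13 of mix-1 in the 4 lists, with distance from the 5' end of the snoRNA gene M106.6 in bp. Pale bars are peaks, dark ticks their summits, and the lowest row shows flanking exons, the snoRNA gene and the A and B box matches. The 4 peaks cover the whole intron, and the summits lie from 27 bp upstream to 15 bp downstream of the 5' end of M106.6.

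The sequence beneath this summit is shown because it held letters found in the internal promoters of tRNA genes. RNA polymerase III promoters of tRNA genes carry an A box and, further downstream, a B box within the transcribed sequence. The genome was searched on both strands for TGGNNNAGT as A box and GTTCNANNC as B box. The B box had to start 30 to 75 bp after the start of the A box on the same strand. The motifs thus do not overlap, and each B box was paired with the nearest such A box. The motifs were chosen after the sequence had been seen. The stretch chrII:10840245-10840428 is given on the plus strand, read from the RefSeq sequence of WBcel235, with the A box and the B box in capitals.
mix-1 intron 13: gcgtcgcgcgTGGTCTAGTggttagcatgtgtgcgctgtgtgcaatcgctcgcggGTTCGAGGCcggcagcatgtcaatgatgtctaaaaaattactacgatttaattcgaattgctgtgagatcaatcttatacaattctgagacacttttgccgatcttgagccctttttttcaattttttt
M106.6 runs from base 73 to base 147 of this stretch, 8 bp after the B box. The pooled summit is at base 88 and that of replicate 2 at base 46, between the boxes. A run of 7 T follows 20 bp after the end of the snoRNA gene. No tRNA gene is annotated there, and the nearest lies 317494 bp away from the boxes.

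Such pairs of boxes were also counted in windows of 301 bp centred on summits. They occurred in 18.0% of the 440 reproducible windows (79), in 1.89% of pooled windows, in 1.48% of replicate 1 windows and in 1.40% of replicate 2 windows. Of the 1470 pairs found in the nuclear genome, 160 overlapped an annotated tRNA gene and 23 others lay within 220 bp of a snRNA or snoRNA gene. The pair upstream of M106.6 is 1 of those 23, and 15 of them (65.2%) had a reproducible summit within 220 bp. For pairs that overlapped a tRNA gene the share was 36.9% (59 of 160). A match of letters is a description of the sequence and does not show that it is used.

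Away from the snoRNA gene, mix-1 had 5 further summits in the pooled list, ranked from 1698 to 11651, with 6 more in replicate 1 and 4 more in replicate 2. The strongest of the 5, at rank 1698 in the pooled list, 7251 in replicate 1 and 2222 in replicate 2, lay in intron 7. It was also in a coding exon of VM106R.1, a gene nested there on the other strand, so it cannot be assigned to mix-1 alone. At the start of mix-1 the pooled summit lay 4 bp upstream of the 5' end (rank 7781) and that of replicate 2 75 bp upstream (rank 2076). The gene R06F6.12, which runs away from mix-1, begins 161 bp from the pooled one. In replicate 1 the nearest summit was 337 bp inside mix-1, in exon 2 (rank 5288), and its peak shared 23 bp with that of replicate 2.

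dpy-27 (III, 3813018 to 3819679, minus strand) encodes the SMC subunit particular to the dosage compensation condensin. A peak in coding exon 8 ranked 3291 in the pooled list, 4277 in replicate 1 and 4961 in replicate 2. Its summits in replicates 1 and 2 were 59 bp apart, 3452 and 3393 bp from the 5' end. The position was thus shared by both replicates at a middle rank. Replicate 1 also had a summit in the 3' UTR at rank 3710, the highest of dpy-27 in that list, with no overlapping peak in replicate 2.

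dpy-26 (IV, 12445801 to 12451335, minus strand) encodes the kleisin that closes the ring. Its summit in coding exon 5 ranked 2221 in the pooled list, 10202 in replicate 1 and 2047 in replicate 2, and the 2 replicate summits were 19 bp apart. Replicate 2 also had a summit 260 bp upstream of the gene (rank 2786), which the pooled list placed 267 bp upstream (rank 5099). In replicate 1 the upstream window held none. A further summit in the 3' UTR of dpy-26, also assigned to the gene C25G4.3, ranked 9761 in the pooled list and 14864 in replicate 1. In coding exon 5 the agreement in position thus went with a large gap in rank, replicate 2 being the higher.

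dpy-28 (III, 10763131 to 10777076, plus strand), which encodes a HEAT-repeat subunit, was the 1 condensin gene without overlapping peaks in replicates 1 and 2. In replicate 1 its best summit lay in coding exon 1, 94 bp from the 5' end, at rank 813 with signal 35.3. The pooled list had it at rank 1981, 96 bp from the 5' end. Replicate 2 held no overlapping peak, and its 3 summits lay in introns 9, 10 and 12, the best at rank 3539. None of the 3 peaks of replicate 1 overlapped any of the 3 of replicate 2 in this gene.

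capg-1 (I, 7634492 to 7639785, minus strand) encodes the other HEAT-repeat subunit. It ranked 10420 in the pooled list, 11205 in replicate 1 and 5218 in replicate 2. The best summit of replicate 1 lay 189 bp upstream of the gene. The pooled summit, the best of replicate 2 and a second summit of replicate 1 lay in coding exons 12 and 13 near the 3' end. That second summit ranked 14820 of 15372 in replicate 1. At the exons the replicate peaks shared 181 bp, with summits 254 bp apart. The best rank of replicate 2 lay 34.9% of the way down its list, and the other best ranks lay lower.

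**Figure D3:**
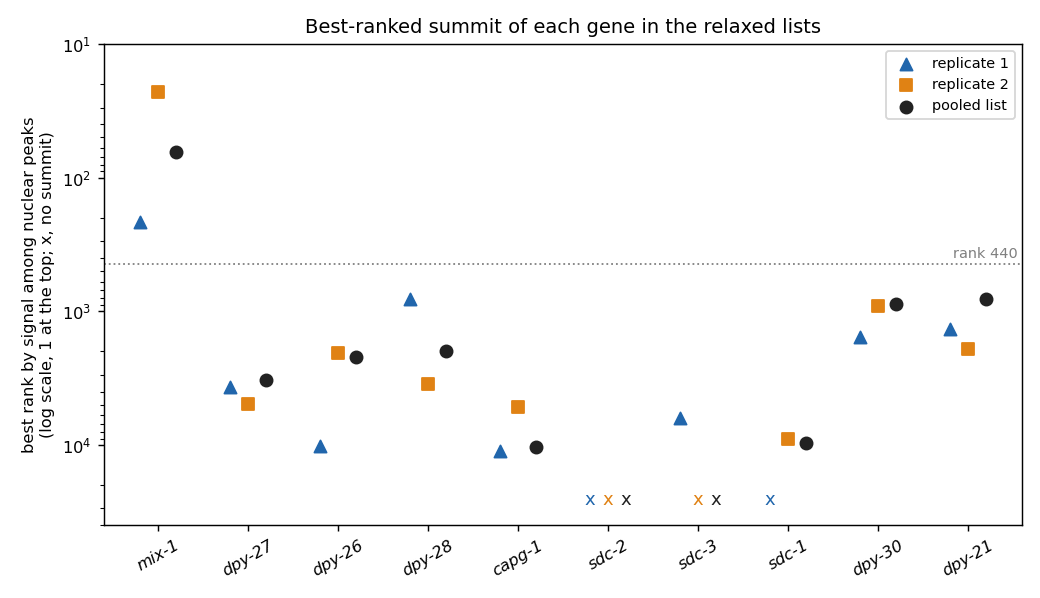
Best rank of each gene among nuclear peaks in the relaxed lists of replicates 1 and 2 and of the pooled replicates, on a log scale with rank 1 toward the top. A letter x marks a gene without a summit in that list, and the dotted line marks rank 440. mix-1 lies above the line in all 3 lists, between ranks 23 and 215, and the other genes lie below it.

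The sdc genes had 2 summits at most in any list. sdc-2 (X, 11522707 to 11533450, plus strand) encodes the protein, made in hermaphrodites, that starts assembly on the X. It had no summit in any of the 4 lists. The nearest outside its window was 13206 bp upstream in the pooled list, 4379 bp upstream in replicate 1 and 1189 bp upstream in replicate 2 (rank 7246). sdc-2 spans 10744 bp, and of the 569 X-linked protein-coding genes of at least 5 kb, 54.7% had a pooled summit.

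sdc-3 (V, 15039148 to 15048207, minus strand) and sdc-1 (X, 16275763 to 16282534, plus strand) encode zinc finger proteins of the complex. sdc-3 had 2 summits in replicate 1, in coding exon 9 (rank 6340) and intron 2 (rank 8467), and none in replicate 2 or in the pooled list. sdc-1 had 1 summit in intron 9, at rank 9052 in replicate 2 and 9625 in the pooled list, and none in replicate 1. Neither gene was therefore seen in both replicates. A reproducible peak of rank 423 lay 2824 bp beyond the 3' end of sdc-1, outside the window that assigns a summit to the gene.

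dpy-30 (V, 12191519 to 12192385, plus strand, 867 bp) encodes a small protein shared by the dosage compensation complex and the COMPASS histone methyltransferases. Its best summit ranked 890 in the pooled list with signal 59.7. It ranked 1574 in replicate 1 with signal 29.5 and 912 in replicate 2 with signal 32.7. The replicate summits were 49 bp apart. The −log10 q of this summit was 1.29 in the pooled list, 0.650 in replicate 1 and 1.37 in replicate 2. It lay 785 bp from the 5' end in the pooled list, in the last intron of 1 Ensembl transcript, and also 31 bp inside the first exon of the next gene, rnp-1, on the same strand. RefSeq ends dpy-30 at 12192177, short of this summit, and by those bounds the best rank of dpy-30 was 5509 in the pooled list, 14598 in replicate 1 and 11993 in replicate 2. These lower ranks belong to a second site, 140 bp upstream of dpy-30 in the pooled list, 76 bp upstream in replicate 1 and 145 bp upstream in replicate 2.

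dpy-21 (V, 17936282 to 17949193, minus strand, 12912 bp) encodes a Jumonji demethylase of histone H4 that acts with the complex on the X. Its best summit, in intron 8, ranked 813 in the pooled list with signal 61.6. It ranked 1357 in replicate 1 with signal 30.7 and 1928 in replicate 2 with signal 26.7. The replicate summits were 19 bp apart, 9977 and 9996 bp from the 5' end, and the small RNA gene nearest to either is 8051 bp away. The other summits of dpy-21, 4 in replicate 1 and 2 in replicate 2, did not belong to overlapping peaks. Of those in replicate 1, 3 lay in coding exon 6, at ranks 1649, 2591 and 9900.

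The intron 8 summit also lay on a pair of A and B boxes. dpy-21 contained 7 such pairs, all in introns and all with 44 bp from the start of the A box to the start of the B box, 6 on the strand opposite to the gene and 1 on its own strand. The tRNA gene nearest to any of them is 6062 bp away. Over the 53 bp from A box to B box the 7 copies matched each other at 38 to 53 positions, with a median of 41. The 4 copies with a summit of any relaxed list within 220 bp are given on the plus strand, boxes in capitals, to show how alike they are.
chrV:17939180-17939252: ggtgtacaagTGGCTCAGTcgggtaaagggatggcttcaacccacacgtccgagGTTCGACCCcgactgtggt
chrV:17937198-17937270: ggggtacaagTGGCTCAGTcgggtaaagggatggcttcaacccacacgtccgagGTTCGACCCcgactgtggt
chrV:17948190-17948262: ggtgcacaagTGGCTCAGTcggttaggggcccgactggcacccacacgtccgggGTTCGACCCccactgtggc
chrV:17948516-17948588: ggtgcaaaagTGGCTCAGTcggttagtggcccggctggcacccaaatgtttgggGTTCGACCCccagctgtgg
The first copy is the one beneath the intron 8 summits, which fell between its boxes in the pooled list and replicate 1 and in its A box in replicate 2. The second is identical to it over all 53 positions, yet it had no summit within 220 bp in the pooled list or replicate 1, and 1 in replicate 2 at rank 14817, 97 bp away. The last 2 copies had the same replicate 1 summit near them, at rank 13005, and none in replicate 2. Whether reads could be told apart between such copies was not tested, since the aligner is not given in the sources used here.

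**Figure D4:**
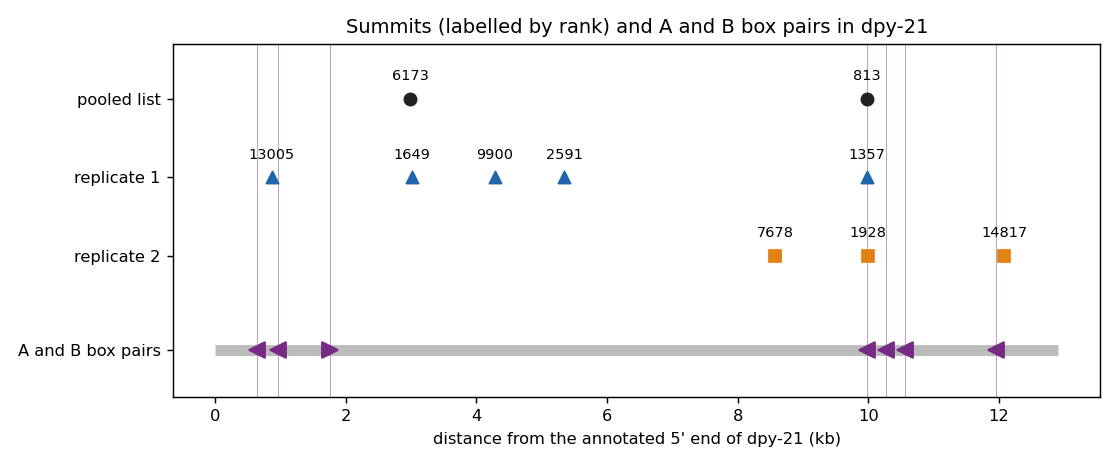
Summits in dpy-21, each labelled with its rank, in the pooled list and in both replicates, and the 7 pairs of A and B boxes, all against distance from the annotated 5' end in kb. Purple arrowheads and lines mark the pairs, pointing left when on the strand opposite to dpy-21. The column near 10 kb is the only pair with a summit in all 3 lists.

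Pairs of boxes were found in 3 of the 10 members, dpy-21, mix-1 and capg-1, and in 2.9% of all protein-coding genes (580 of 19973). The pair in capg-1 had no summit within 220 bp in any list. Windows of 301 bp around member summits held a pair in 2 of 19 cases in the pooled list, 3 of 25 in replicate 1 and 3 of 19 in replicate 2. Since the motifs were chosen after sequence at a member summit had been seen, these counts cannot show an enrichment at the members. The share of genes with a pair was also not adjusted for length, and the members are long genes. The GC content of 101 bp around the 19 pooled member summits had a median of 38.6% (23.8 to 58.4), against 40.6% over all pooled summits (quartiles 31.7 and 48.5). The pooled median at the members thus lay between the quartiles of the list, while single summits ranged beyond them. In replicate 1 the median was 38.6% against 39.6% over all summits. In replicate 2 it was 31.7% (19.8 to 54.5), against 37.6% (quartiles 30.7 and 46.5). These differences were not tested.

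Both replicates had a summit in 7 of the 10 genes, against 26.1% of all protein-coding genes, and in 6 of the 9 members of at least 5 kb, against 55.3% of all such genes. Summits of overlapping peaks in both replicates were found in 6 of 10, against 18.7% of all genes, which leaves out dpy-28. Of the genes of at least 5 kb, 5 of 9 members had such summits, against 34.6%. At the level of single peaks, 10 of the 25 member peaks of replicate 1 (40.0%) overlapped a peak of replicate 2, as did 40.1% of all peaks of replicate 1 in protein-coding genes. Of the 19 member peaks of replicate 2, 10 (52.6%) overlapped one of replicate 1, against 41.6%. Counted by peaks, the share at the members was thus near that of all genes for replicate 1 and higher for replicate 2, and neither difference was tested.

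Among the 1000 pooled nuclear peaks of highest signal, 3 members had a summit, mix-1, dpy-21 and dpy-30, where 3.59% of all protein-coding genes did. Of the genes of at least 5 kb it was 2 of 9 members, against 6.31%. By the RefSeq bounds of dpy-30 it was 2. The plot of genes against list depth shows the same count at other depths, with 1 of 10 members among the top 440 peaks, 4 among the top 2000 and 6 among the top 5000. The background grew as well, to 7.59% of all genes at 2000 peaks and 17.8% at 5000. Among genes of at least 5 kb it was 13.2% at 2000 peaks and 33.8% at 5000.

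**Figure D5:**
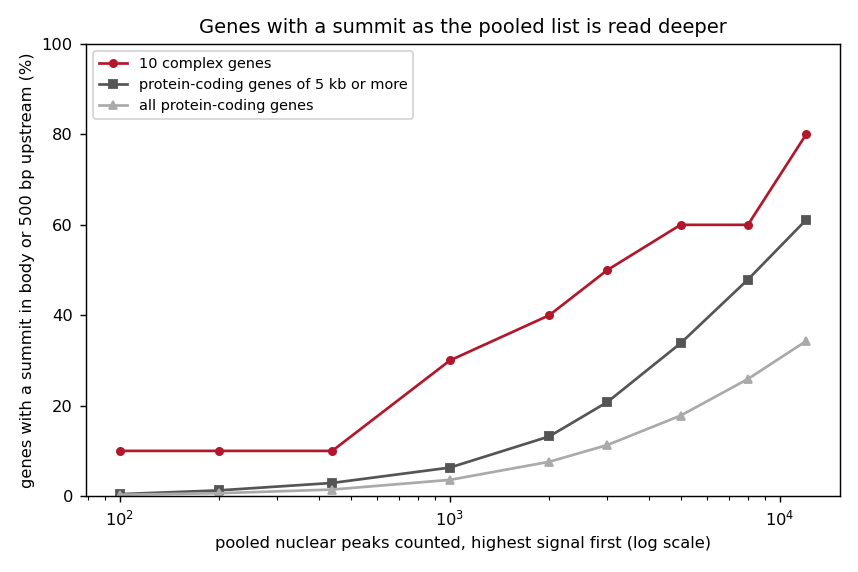
Percentage of genes with a summit in the body or 500 bp upstream, for the 10 complex genes, for protein-coding genes of 5 kb or more and for all protein-coding genes, as pooled nuclear peaks are counted from the highest signal down (log scale). The curve of the 10 genes moves in steps of 1 gene, from 10% at the top 440 peaks to 80% in the whole list. There all genes reach 34.3% and genes of 5 kb or more 61.1%.

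By position, 10 of the 19 pooled member summits lay in introns, 5 in coding exons, 3 upstream and 1 in a 3' UTR. Over all genes and summits of the pooled list, introns held 34.6%, coding exons 38.5%, the 500 bp upstream 17.3% and 3' UTRs 7.11%. In replicate 1 introns held 12 of 25 member summits, against 4750 of 13197 over all genes, and in replicate 2 13 of 19, against 36.5%. The shares over all genes were not matched for gene length, and the members are long genes. mix-1 alone supplied 5 of the 10 intron summits of the pooled list. The summit farthest upstream inside the windows was that of dpy-26 at 267 bp, and the nearest one beyond 500 bp upstream was that of replicate 1 at 553 bp upstream of dpy-27 (rank 15198). Past the 3' ends, where the windows stop, the nearest was that of replicate 1 at 80 bp downstream of dpy-30 (rank 15195).

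A wider list of 35 genes was also read, of which 34 matched a gene name. It held other condensin subunits, genes of the X signal and sex determination, and COMPASS subunits. Genes of H4K20 methylation and H2A.Z, MES genes and genes of H3K36 methylation made up the rest, and most are not part of the complex. In the reproducible list 2 of the 34 had a summit, against 1.45% of all protein-coding genes. In the pooled list it was 23 of 34 against 34.3%, in replicate 1 23 against 40.6% and in replicate 2 26 against 39.5%. These shares were not matched for gene length. mes-4 itself, the gene behind the tagged protein, had a summit in an intron (V, 13433495 to 13433934) at rank 83 in the pooled list, 71 in replicate 1 and 267 in replicate 2. The animals also carried the transgene for MES-4, and reads of the transgene were not told apart from those of the native gene. set-16, which encodes a COMPASS-like methyltransferase, had a summit 190 bp upstream (III, 13643506 to 13643945), also upstream of drr-2, at rank 108 in the pooled list, 260 in replicate 1 and 63 in replicate 2.

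Other genes of that list were among the top 1000 pooled peaks, each with its summit upstream. These were hcp-6, a subunit of the mitotic and meiotic condensin, at rank 679 and 138 bp upstream, a summit also assigned to let-630, and utx-1, which encodes a histone H3 demethylase, at rank 727 and 314 bp upstream. smc-4, the SMC partner of MIX-1 in the other condensins, ranked 4631 in the pooled list, 2125 in replicate 1 and 3671 in replicate 2. capg-2 and the X signal genes xol-1 and sex-1 had no summit in any list, and were named after their values were seen. In the pooled list 7 of the 12 genes of the X signal and sex determination had a summit, and 3 of the 4 condensin genes. The share of all protein-coding genes was 34.3%, not matched for length. None of the 4 condensin genes of the list was in the reproducible list. The condensin gene found there was mix-1, by its summit inside the snoRNA gene M106.6.

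Other protein-coding genes resembled mix-1 in carrying their best pooled summit at a tRNA or snoRNA gene within the gene body. Of the 6842 protein-coding genes with a pooled summit, 229 besides mix-1 did so. Those nearest to it in pooled rank were lgc-4 at 63, with the tRNA gene F18G5.t1, Y38F2AR.12 at 67, with the snoRNA gene Y38F2AR.14, and ser-2 at 57, with the tRNA gene C02D4.t1. In replicate 1 they ranked 72, 263 and 180, and in replicate 2 44, 22 and 18. In each of these genes the summit was in an intron. Likeness here means such a position of the best summit and then pooled rank alone. Unlike mix-1, lgc-4 and ser-2 lie on the X and hold tRNA genes.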

How the data were processed

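Peak lists on ce11 were used as deposited. Per the deposited file descriptions, the authors called relaxed lists, which include background, on each replicate and on the pool of both, and kept reproducible peaks by the irreproducible discovery rate. Not given in the sources used here were aligner, caller and thresholds. The deposited signal of a peak was used only to rank peaks within a list. Its deposited −log10 q value was used in 1 alternative ranking and is printed for some member summits. Lists on ce10 were not used, and mitochondrial peaks were left out.

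Genes came from Ensembl release 115 for WBcel235, the assembly called ce11, and sequence from RefSeq for the same assembly. No peak ended beyond its chromosome. A summit belonged to a gene when it lay in the body or up to 500 bp upstream, and to a small RNA gene (tRNA, snRNA or snoRNA) within 220 bp. Peaks overlapped when they shared at least 1 bp. Coordinates are 1-based. Intron and exon numbers follow the transcript with the longest coding sequence.

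The members and lists were chosen with earlier results of these data known, and no test was run. All members are named, with genes that share their summits, genes of the wider list in the reproducible list or top 1000 pooled peaks, and the 3 genes nearest mix-1 in rank. smc-4, capg-2, xol-1 and sex-1 were named after their values were seen. Gene assignment was tested on simulated data. Alternatives were gene bodies alone, 1000 bp upstream, any overlap, no peaks at small RNA genes, shorter lists, single replicates and RefSeq bounds. Software was Python 3.11.15 with pandas 2.3.3, numpy 2.4.6 and matplotlib 3.10.9.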

Additional observations from a re-analysis of the deposited data

How the results depend on the processing

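Counts of members with a summit were the same with gene bodies alone, with 1000 bp upstream and with any overlap of the peak, in each of the 4 lists and in both replicates together. The pooled share of all protein-coding genes was 29.4%, 37.5% and 38.4% under these settings. Without replicate 1 the reproducible list was replaced by the top 440 peaks of replicate 2, and without replicate 2 by those of replicate 1. In either case 1 member, mix-1, had a summit. Of all protein-coding genes, 1.49% had one among the top 440 of replicate 2 and 1.52% among those of replicate 1. The pooled count of 8 was also 8 from replicate 2 alone and from replicate 1 alone, with sdc-3 in place of sdc-1 in replicate 1. With peaks at small RNA genes left out, 0 members had a summit in the reproducible list, against 0.636% of all protein-coding genes. Among the top 1000 peaks of each list, 3 members had a summit in the pooled list, against 3.59% of all protein-coding genes. It was 2 in replicate 1 against 3.64%, 2 in replicate 2 against 3.69% and 1 in both replicates against 1.66%. Overlapping peaks in both were found in 1 member, against 1.53% of all genes. Among the top 5000, 6 members had a summit in the pooled list against 17.8% of all genes. It was 5 in replicate 1 against 17.7% and 6 in replicate 2 against 17.5%. Both replicates had one in 5 members against 8.57%, and overlapping peaks in 4 against 6.19%. With an overlap of at least 50%, 5 of the 6 members with overlapping peaks were left, without capg-1, against 16.3% of all genes. The shorter lists hold fewer peaks by construction. By −log10 q the mix-1 peak had a mean rank of 181 in the pooled list, since many peaks share the highest value, and with mitochondrial peaks kept it ranked 84. RefSeq gene bounds, added after the data were seen, changed the best rank of dpy-30 alone. No paired analysis was possible because there was 1 group. Depth is unknown from these lists, so genes without a summit cannot be called unbound.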

Other observations

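A and B box pairs far from annotated small RNA genes, such as those in dpy-21, were also counted over the nuclear genome. Of the 1287 pairs more than 220 bp from any tRNA, snRNA or snoRNA gene, 12 (0.932%) had a reproducible summit within 220 bp, 132 (10.3%) a pooled one, 141 (11.0%) one of replicate 1 and 128 (9.95%) one of replicate 2. Pairs that overlapped a tRNA gene had a pooled summit in 134 of 160 cases (83.8%). Of the 150 reproducible peaks away from small RNA genes, 12 (8.0%) held a pair within 301 bp centred on the summit, against 0.763% of the 11277 such pooled peaks. These values were computed after the pairs in mix-1 and dpy-21 had been seen.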
